A study of Mus musculus with 9 samples.

Results

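Sarcomere and Z-disc genes are described here in stromal cells sorted from the tissue around a bone implant: 44 genes named by symbol, all 44 of which matched a row among the 27179 gene IDs measured. They were named by role, as structural, anchoring and assembly proteins of the muscle contractile unit. The list was made with earlier results of these data known. Polyadenylated RNA was sequenced from Lin-Lepr-tdTomato+ cells (negative for lineage markers, positive for the red reporter tdTomato) of mouse peri-implant fibrous tissue, taken 2 weeks after implantation into the tibia. All mice received tamoxifen, and all carried a Cre recombinase expressed under Lepr control (Lepr-CreERT) and the Tdtomato reporter. The 4 control libraries had no further allele (Lepr-CreERT;Tdtomato, Cre only), and the 5 conditional knockout (cKO) libraries also carried floxed Grem1 (Lepr-CreERT;Tdtomato;Grem1fl/fl). Grem1 encodes gremlin 1, a secreted antagonist of bone morphogenetic proteins. The sort followed the reporter, which marks cells by past Cre activity whatever they express at harvest. The labels do not say that each library came from a separate animal, so each p-value reflects variation among these libraries, part of which may be technical.

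The sarcomere is the repeating contractile unit of striated muscle. Thin filaments of actin are anchored at the Z-disc by α-actinin, thick filaments of myosin are held at the M-band by myomesins, and titin spans from one to the other. Skeletal muscle fibres hold these proteins in fast and slow versions encoded by separate genes, while stromal cells build their actin cables from non-muscle relatives of the same families.

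The DNA just before the start sites of the genes is shown first. Whether it bears on the differences between the genotypes was not tested. Upstream windows of 250 bases were taken from RefSeq (build GRCm38.p6, which is not the mm39 build of the count files), and 33 of the 44 genes had an entry. Each window was searched on both strands for 4 motifs of muscle promoters: the E-box CAGCTG (bound by myogenic basic helix-loop-helix factors, and its own reverse complement), the CArG box (serum response factor), the MEF2 site, and the M-CAT element CATTCC (TEAD factors). No matches of different motifs overlapped in these windows. The 6 windows below run 5′ to 3′ on the gene's strand, with matches in capitals. They include the most abundant of the 44 genes in the knockout libraries (Acta1) and its cardiac relative, which did not pass the test (Actc1). The others are the abundant fast myosin light chains (Myl1 and Mylpf) and a slow-fibre Z-disc gene with a MEF2 match (Myoz2). The last is a gene with no read in any control and no match (Klhl31).
Acta1 (chr8:123894776-123895025, minus strand): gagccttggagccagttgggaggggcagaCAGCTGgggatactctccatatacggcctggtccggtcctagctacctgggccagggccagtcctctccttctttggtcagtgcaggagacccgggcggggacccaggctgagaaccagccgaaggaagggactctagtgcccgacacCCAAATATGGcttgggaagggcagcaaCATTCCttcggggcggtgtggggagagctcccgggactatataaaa
Actc1 (chr2:114052876-114053125, minus strand): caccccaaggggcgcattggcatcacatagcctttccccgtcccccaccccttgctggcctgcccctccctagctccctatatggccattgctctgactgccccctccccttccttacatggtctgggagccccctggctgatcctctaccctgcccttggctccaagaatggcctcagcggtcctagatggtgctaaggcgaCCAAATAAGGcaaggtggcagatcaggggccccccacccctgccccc
Myl1 (chr1:66945057-66945306, minus strand): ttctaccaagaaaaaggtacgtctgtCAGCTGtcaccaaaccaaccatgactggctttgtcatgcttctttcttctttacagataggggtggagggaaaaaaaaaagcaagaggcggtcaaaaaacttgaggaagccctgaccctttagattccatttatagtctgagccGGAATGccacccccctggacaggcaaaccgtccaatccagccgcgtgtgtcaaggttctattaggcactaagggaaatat
Mylpf (chr7:127211358-127211607, plus strand): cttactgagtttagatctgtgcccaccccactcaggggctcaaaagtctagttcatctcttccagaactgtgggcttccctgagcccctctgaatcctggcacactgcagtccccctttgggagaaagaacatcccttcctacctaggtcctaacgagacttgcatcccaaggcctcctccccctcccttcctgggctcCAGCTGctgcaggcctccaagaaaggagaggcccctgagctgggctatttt
Myoz2 (chr3:123034988-123035237, minus strand): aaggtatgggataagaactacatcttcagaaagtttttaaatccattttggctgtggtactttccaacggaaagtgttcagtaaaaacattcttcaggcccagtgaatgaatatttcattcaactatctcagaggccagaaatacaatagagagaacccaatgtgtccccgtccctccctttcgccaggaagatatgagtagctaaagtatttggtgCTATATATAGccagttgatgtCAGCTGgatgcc
Klhl31 (chr9:77636482-77636731, plus strand): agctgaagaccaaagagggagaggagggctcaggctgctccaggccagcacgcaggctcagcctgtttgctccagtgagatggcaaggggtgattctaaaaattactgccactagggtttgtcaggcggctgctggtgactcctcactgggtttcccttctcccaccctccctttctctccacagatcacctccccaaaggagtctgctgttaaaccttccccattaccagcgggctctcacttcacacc

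Acta1 was the only gene among the 33 with matches of 3 of the 4 motifs, and 9 others had matches of 2. The E-box was present upstream of 15 of the 33 genes (45.5%), against 14.7% of all 27025 genes with a window. The CArG box was found for 5 of 33 (15.2%) against 1.62%, the MEF2 site for 6 of 33 (18.2%) against 3.42%, and the M-CAT element for 11 of 33 (33.3%) against 14.4%. The letters of none of the 4 occurred in the windows of 7 genes, Actn2, Cmya5, Csrp3, Klhl31, Lmod2, Smyd1 and Unc45b. A match describes letters and not a bound site.

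Depth was uneven between the groups. Recovered reads numbered 44.8 to 53.4 M (megareads) in the controls and 76.3 to 87.2 M in cKO replicates 1 to 4, while cKO replicate 5 held 43.5 M. Grem1 itself had normalized counts of 736, 517, 676 and 356 in controls 1 to 4, against 83.2, 46.4, 125, 133 and 60.8 in cKO replicates 1 to 5. Each cKO library lay below each control (log2 difference -2.72, SE 0.43, limma adjusted p = 0.00781). An exact permutation test, two-sided with the smaller tail doubled, gave p = 0.0159, the smallest it can give. The labels do not name the deleted part of Grem1, and reads from exons outside that part may count here. Lepr, the gene that drives the Cre, was listed in all libraries, between 935 and 40594 in controls and between 1347 and 15785 in cKO.

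Most of the contractile genes were higher in the knockout libraries. Of the 44, 34 passed the test as higher in cKO, 0 as lower (all 43 tested differences were above 0, so none was lower at an unadjusted p under 0.05), 9 did not pass, and Myoz3 was not tested because it did not reach a normalized count of 10 in 4 libraries. Of the 15832 genes tested 4.61% were called higher and 2.87% lower. The tests used limma on log2(normalized count + 1), and differences below are on that log2 scale unless a fold is named. The median difference over the 43 tested members was 7.50, ranging from 0.74 for Flnc to 10.49 for Mybpc2, while the median over all genes tested was -0.0039. With the 9 members that had no read in any control set at the lower bound of their fold, that median was 7.21. The same 34 genes were those in which every cKO library exceeded every control, a state found in 6.82% of all genes tested. No member had every cKO library below every control, against 4.60% of genes.

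The filter bears on these counts. Of the 43 members that passed it, 30 reached a normalized count of 10 in fewer than 4 controls and 10 in no control, so they were tested only because of their cKO levels, and those 10 had to differ. The 13 that reached 10 in every control did not depend on the knockout libraries to be tested: 7 of them were called higher, and their median difference was 2.39. With no filter on low values 33 of all 44 were called higher and 0 lower, against 2.67% and 1.67% of all genes. Counts by another tool run on recovered reads were 28 higher and 0 lower with edgeR (3.26% of genes higher, 1.71% lower) and 39 higher and 0 lower with DESeq2 (9.90% and 6.14%). The 6 calls lost with edgeR were Lmod3 (adjusted p = 0.177), Ttn (0.0784), Myom2 (0.0683), Synpo2l (0.119), Nrap (0.0587) and Klhl41 (0.0681). In the authors' deposited table, 40 of the 44 were higher at an adjusted p under 0.05 and 0 lower, where 10.5% of all genes with an adjusted p were higher.

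**Figure D1:**
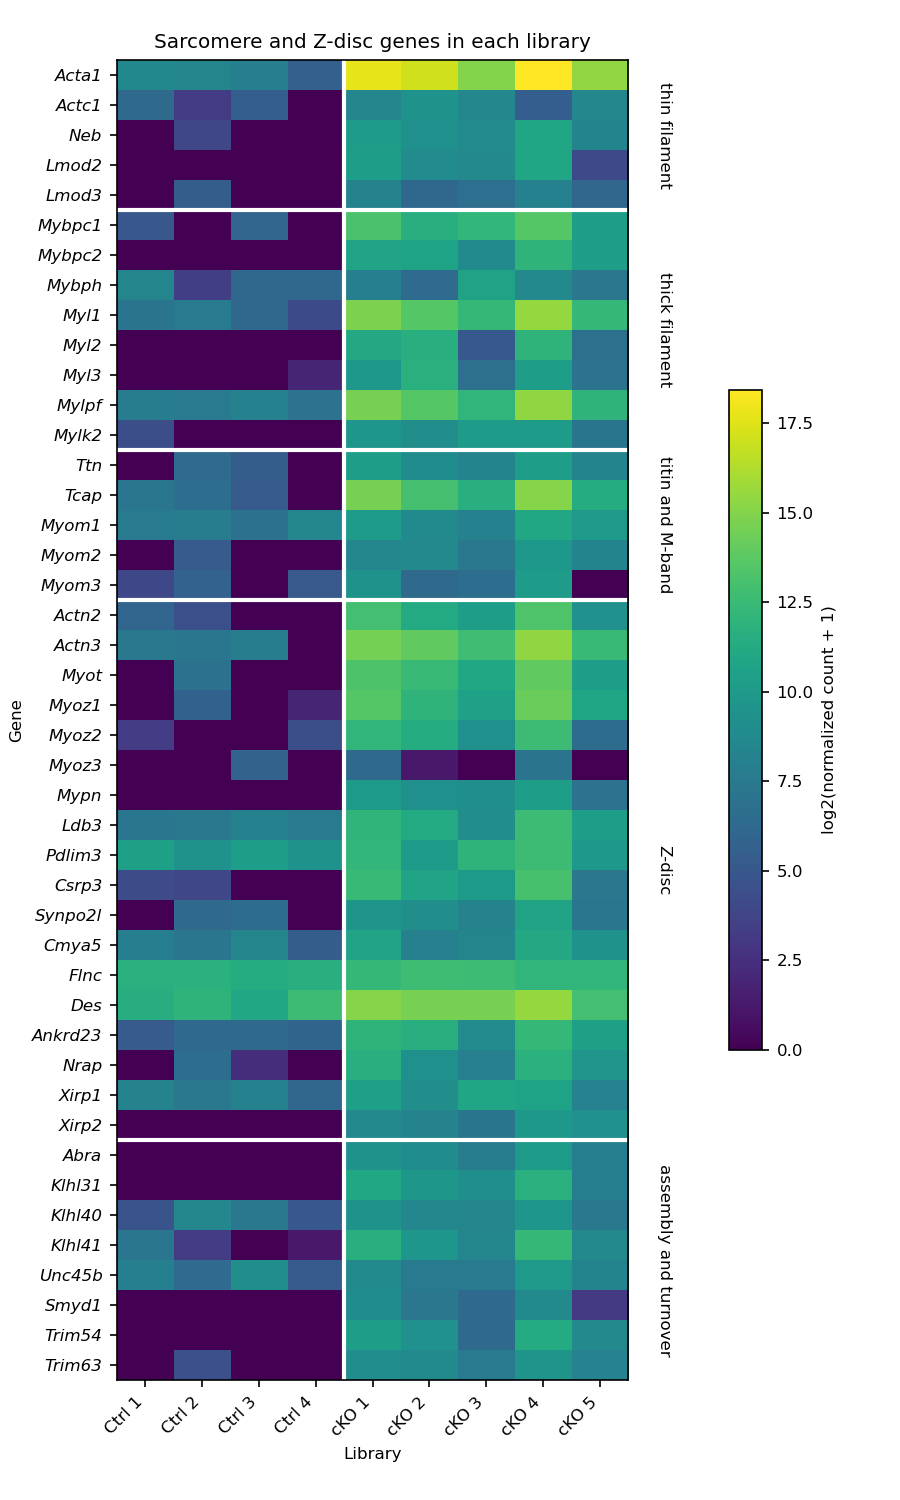
Level of each of the 44 genes (rows, by role) in each library (columns, 4 controls left and 5 cKO right), as the colour of log2(normalized count + 1). Most rows are darker (lower) in the controls than in the cKO columns, and cKO replicate 4 is the brightest in 36 of the 44 rows.

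Among genes of the thin filament, 4 of 5 rose, and skeletal α-actin stood far above the rest. Acta1, the actin of adult skeletal fibres, had normalized counts of 395, 337, 237 and 50.3 in controls 1 to 4 and of 219018, 139167, 32439, 351238 and 43525 in cKO replicates 1 to 5. The lowest knockout library thus lay far above the highest control, and replicates 1 and 4 led (255 ± 151, SD, n = 4, against 157077 ± 132556, SD, n = 5). Its difference was 9.08 (SE 0.80, adjusted p = 0.000635). Neb encodes nebulin, the giant protein that runs along the thin filament. It was at 0 in 3 controls and 13.8 in control 2, against 1156, 619, 462, 1809 and 321 in cKO replicates 1 to 5 (difference 8.52, SE 0.94, adjusted p = 0.00189).

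Lmod2 and Lmod3 encode leiomodins, which start new actin filaments. Lmod2 had no read in any control and 1191, 472, 408, 1879 and 15.9 normalized counts in the 5 cKO libraries (adjusted p = 0.00565). Against a floor of 3 reads per control library, its mean was at least 203-fold higher, or at least 134-fold without cKO replicate 4. Lmod3 was at 41.4 in control 2 alone among controls and between 66.1 and 300.3 in cKO (difference 5.72, adjusted p = 0.0247). Its call was lost without control 1, 3 or 4 or cKO replicate 1, 3 or 4, where the adjusted p lay between 0.0517 and 0.0718.

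Actc1, the actin of heart and of developing skeletal muscle, did not pass. Its counts were 81.1, 8.28, 45.2 and 0 in the controls and 331, 670, 374, 43.4 and 360 in cKO replicates 1 to 5, so cKO replicate 4 fell among the controls (difference 4.28, SE 1.29, adjusted p = 0.0687). The library with the most Acta1 therefore had the least Actc1 of the cKO libraries. Per kilobase of transcript, Actc1 was 0.148%, 0.471%, 1.12%, 0.0121% and 0.805% of the sum of both actins in cKO replicates 1 to 5.

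**Figure D2:**
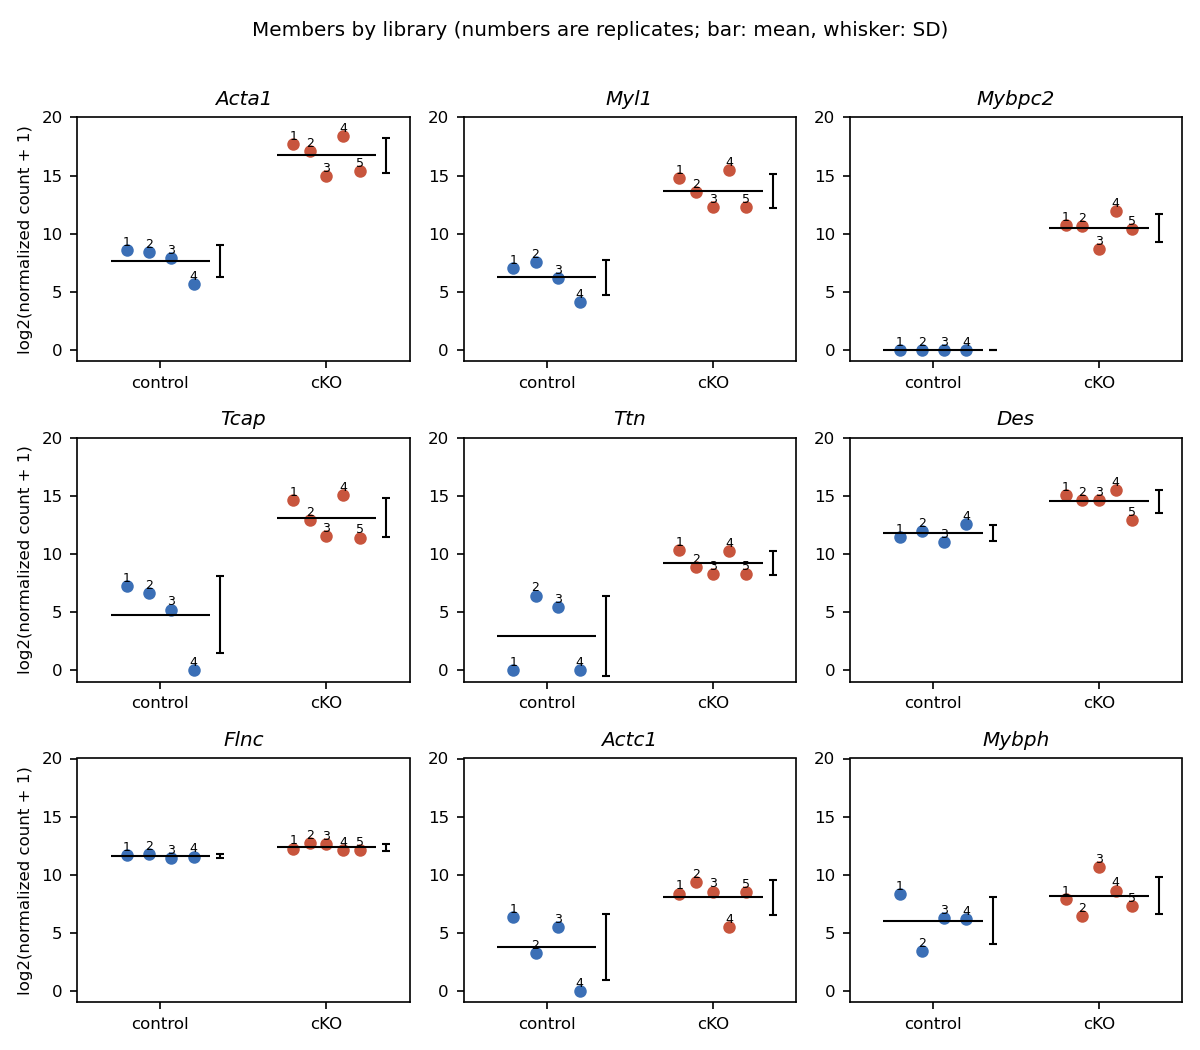
Levels of 9 of the genes as log2(normalized count + 1), with each library a numbered point, the bar the mean and the whisker the SD of the log2 values. Acta1, Myl1, Mybpc2, Tcap, Ttn, Des and Flnc have no overlap between groups, with the narrowest gaps for Des and Flnc, while in Actc1 and Mybph the groups overlap.

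Genes of the thick filament rose in 7 of 8 cases. Myl1 is the essential myosin light chain of fast fibres; its counts were 132, 182, 73.2 and 16.8 in controls 1 to 4 and 27890, 11968, 5010, 45777 and 4960 in cKO replicates 1 to 5 (difference 7.44, SE 0.83, adjusted p = 0.00189). Mylpf, the regulatory light chain of fast fibres, was at 213, 192, 275 and 130 in the controls and at 25031, 11892, 4450, 41854 and 4082 in the knockouts (difference 5.91, SE 0.66, adjusted p = 0.00189). Both light chains were present in every control and both followed the same order of cKO libraries, with replicate 4 highest, replicate 1 next and replicate 5 lowest.

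The myosin-binding proteins C differed in their controls. Mybpc2, the fast form, had no read in any control and 1731, 1633, 417, 3988 and 1313 normalized counts in cKO replicates 1 to 5, at least 465-fold higher (adjusted p = 0.000146). Mybpc1, named the slow form, was at 31.1, 0, 62.4 and 0 in controls and 8970, 3195, 4737, 12045 and 1223 in cKO (difference 9.41, SE 1.32, adjusted p = 0.00459). Neither gene had overlapping groups. Mybph, a smaller relative, was at 328, 9.66, 75.4 and 69.9 in controls and at 241, 86.1, 1590, 397 and 160 in cKO. Its groups overlapped (difference 2.15, SE 1.05, adjusted p = 0.217), and 50.1% of its exon bases overlap a gene on the other strand, whose reads cannot be told apart without strand information.

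The slow and cardiac light chains also rose. Myl2 (regulatory) had no read in any control, and its counts in cKO replicates 1 to 5 were 2197, 3031, 31.9, 3959 and 108, at least 478-fold higher (adjusted p = 0.00681). Myl3 (essential) had 2 reads in all controls together, both in control 4, and counts of 893, 3346, 110, 1270 and 127 in cKO (adjusted p = 0.00315). The ratio of its means was 1644, with an exact 95% Poisson interval of 455 to 13579 for counting error only. Without control 4 it was at least 302-fold higher, and without cKO replicate 2 the ratio was 858. Mylk2, the myosin light chain kinase of skeletal muscle, was at 20.3 in control 1 and 0 in the others, against 140 to 1152 in cKO (difference 8.13, adjusted p = 0.00367).

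Titin and the M-band were less uniform, with 3 of 5 genes higher. Tcap, the cap protein that binds the titin end at the Z-disc, was at 151, 99.3, 36.6 and 0 in controls and at 25424, 8039, 3056, 35186 and 2758 in cKO replicates 1 to 5 (difference 8.36, SE 1.41, adjusted p = 0.0106). Ttn was at 0, 85.5, 43.1 and 0 in controls and 1306, 486, 318, 1249 and 320 in cKO (difference 6.27, SE 1.39, adjusted p = 0.0281). The groups did not overlap for either gene. The Ttn call was lost without control 1 or 4 or any of cKO replicates 1 to 4, with adjusted p between 0.0512 and 0.0765.

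Of the myomesins, which cross-link thick filaments at the M-band, Myom2 passed and Myom1 and Myom3 did not. Myom2 was at 38.6 in control 2 and 0 in the other 3 controls, and at 371, 409, 167, 884 and 315 in cKO (difference 7.21, SE 1.15, adjusted p = 0.00788). Myom1 was at 204, 223, 114 and 352 in controls and 1178, 432, 276, 2118 and 1001 in cKO, where replicate 3 fell below the highest control (difference 1.92, SE 0.59, adjusted p = 0.0722). Myom3 was at 14.9, 55.2, 0 and 33.5 in controls and 710, 83.5, 102, 1122 and 0 in cKO (difference 2.81, SE 2.00, adjusted p = 0.400). Replicate 5 was thus at 0 while the other 4 cKO libraries were above all controls. Myom1 passed without cKO replicate 3 (2.29, adjusted p = 0.0451) and Myom3 without cKO replicate 5 (4.44, adjusted p = 0.0497).

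At the Z-disc, 14 of 17 tested genes rose, and this role group held both the smallest and one of the largest differences. Actn3, the α-actinin of fast fibres, was at 169, 149, 214 and 0 in controls and at 24901, 15408, 7165, 43166 and 5455 in cKO replicates 1 to 5 (difference 8.23, SE 1.47, adjusted p = 0.0134). Actn2, its relative in slow and cardiac muscle and present in all fibre types, was at 62.2, 22.1, 0 and 0 in controls and 7918, 2503, 1283, 10478 and 637 in cKO (difference 8.82, SE 1.37, adjusted p = 0.0073). Myot encodes myotilin, an α-actinin and filamin binder; it was at 121 in control 2 and 0 in the other controls, against 10044, 5692, 2061, 15829 and 1277 in cKO (difference 10.48, SE 1.45, adjusted p = 0.00435). For all 3 genes the lowest cKO library lay far above the highest control.

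The myozenins, which tether calcineurin to the Z-disc, divided by member. Myoz1, the fast form, was at 0, 52.4, 0 and 2.79 in controls and 12010, 4009, 1510, 18959 and 1902 in cKO (difference 10.32, SE 1.23, adjusted p = 0.00247). Myoz2, the slow and cardiac form, was at 8.11, 0, 0 and 21.0 in controls and 4502, 2722, 592, 6424 and 92.6 in cKO (difference 8.48, SE 1.40, adjusted p = 0.00948). For both, every cKO library lay above every control. Myoz3 was at 58.1 in control 3 alone among controls and at 83.2, 1.35, 0, 137 and 0 in cKO, with no separation of the groups and too few libraries above 10 to be tested.

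Des and Flnc were already abundant in the control cells. Des, the muscle intermediate filament protein desmin, was at 2840, 4136, 2122 and 6315 in controls and at 34977, 25299, 25242, 47142 and 7816 in cKO replicates 1 to 5 (3853 ± 1840, SD, n = 4, against 28095 ± 14468, SD, n = 5). Replicate 5 lay close above control 4, and the difference was 2.77 (SE 0.49, adjusted p = 0.0132). Flnc, the muscle-enriched actin cross-linker filamin C, was at 3370, 3527, 2699 and 3015 in controls and at 4872, 6680, 6223, 4371 and 4473 in cKO (3153 ± 371, SD, n = 4, against 5324 ± 1059, SD, n = 5). Its difference of 0.74 (SE 0.16, adjusted p = 0.0247) was the smallest among the called genes. Unlike the other abundant members it was lowest in cKO replicate 4. The call was lost without control 1, 3 or 4 or cKO replicate 1 or 3, where the adjusted p lay between 0.0539 and 0.0708.

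The other Z-disc genes that rose were Mypn (myopalladin), Ldb3 (the PDZ-LIM protein cypher), Csrp3 (muscle LIM protein), Synpo2l, Ankrd23, Nrap and Xirp2, with differences from 3.48 for Ldb3 to 9.16 for Mypn. Mypn and Xirp2 had no read in any control, and their means were at least 186-fold and at least 123-fold higher. Synpo2l passed narrowly (5.75, adjusted p = 0.0487) and lost its call without control 1 or 4 or any of cKO replicates 1 to 4, with adjusted p between 0.0847 and 0.116. For Ankrd23, 81.1% of its 100-base stretches also occur in the overlapping gene model Gm42417, so its reads could be split between them.

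Pdlim3, Cmya5 and Xirp1 did not pass. Pdlim3, a PDZ-LIM protein that binds α-actinin, was at 682 to 1398 in controls and at 4709, 1104, 4005, 6266 and 924 in cKO, so replicates 2 and 5 lay among the controls (difference 1.45, SE 0.58, adjusted p = 0.143). Xirp1, an actin-binding Xin repeat protein, just missed the threshold (2.39, SE 0.64, adjusted p = 0.0502), with cKO replicate 5 at 288 below control 1 at 299.9. Without cKO replicate 5 both passed, Pdlim3 at 1.82 (adjusted p = 0.0358) and Xirp1 at 2.80 (adjusted p = 0.00844). Cmya5 (myospryn) had a difference of 2.31 (SE 0.78, adjusted p = 0.0927).

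**Figure D3:**
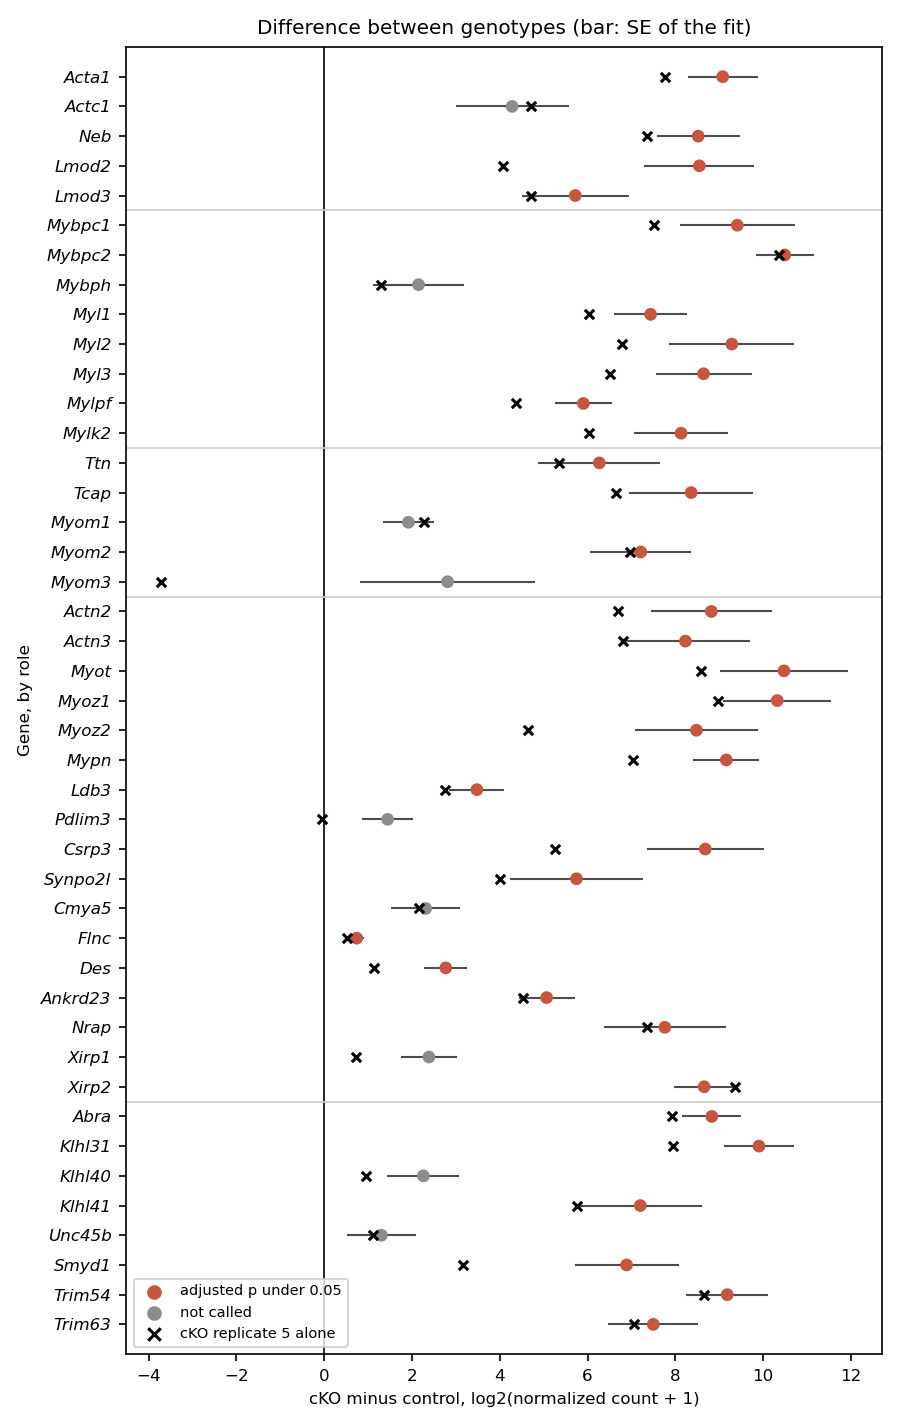
Difference between cKO and control on the log2(normalized count + 1) scale for the 43 tested genes, grouped by role, with the SE of the fit as bars, called genes in colour and cKO replicate 5 alone against the mean of the controls as crosses. All 43 points lie to the right of 0, between 0.74 and 10.49, while the crosses for Myom3 (-3.73) and Pdlim3 (-0.050) lie to its left.

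Genes of sarcomere assembly and turnover rose in 6 of 8 cases. Klhl31, a kelch protein of muscle development, had no read in any control and 2045, 862, 567, 3288 and 245 normalized counts in cKO replicates 1 to 5, at least 359-fold higher (adjusted p = 0.00037), or at least 238-fold without cKO replicate 4. Trim54, a muscle RING-finger ubiquitin ligase, also had no control read and was at 1216, 640, 82.7, 2530 and 399 in cKO, at least 249-fold higher (adjusted p = 0.00146), or at least 150-fold without replicate 4. Klhl41, which stabilizes nebulin, was at 146, 8.28, 0 and 1.40 in controls and 3045, 806, 350, 4825 and 410 in cKO (difference 7.20, SE 1.40, adjusted p = 0.0183). It lost its call without control 4 or cKO replicate 1 or 4, with adjusted p of 0.0527, 0.0534 and 0.0529.

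Abra, an activator of serum response factor signalling, had no read in any control either and was at least 138-fold higher. Smyd1, a methyltransferase needed for myofibril assembly, also had no control read and was at least 59.1-fold higher, or at least 42.8-fold without cKO replicate 1. In cKO replicate 5 Smyd1 had only 6 reads, a normalized count of 7.93, against 485 in replicate 1. Trim63, the ligase MuRF1 of muscle wasting, was at 22.1 in control 2 and 0 in the other controls, against 183 to 758 in cKO (difference 7.50, adjusted p = 0.00401). The 2 that did not pass were present in all controls. Klhl40 had a difference of 2.26 (SE 0.82, adjusted p = 0.112). Unc45b, the chaperone that folds myosin heads, was at 245, 85.5, 558 and 36.3 in controls and at 459, 205, 199, 978 and 315 in cKO, with groups that overlapped widely (difference 1.30, SE 0.79, adjusted p = 0.316). Exons of Klhl40 and Unc45b overlap a gene on the other strand over 19.2% and 11.4% of their bases. So do those of Cmya5 (21.7%) and of the called gene Trim54 (26.6%). In all, 10 of the 44 members exceed 5%, among them the called Des, Myl2, Nrap, Mybpc1 and Mybpc2.

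The genes did not vary independently among the cKO libraries. Replicate 4 was highest of the 5 in 36 of the 44 members, against 16.9% of all genes tested, and replicate 1 came second behind it in 32. Replicate 5 was lowest in 23 members and replicate 3 in 18. The exceptions to replicate 4 were Actc1, Myl3 and Flnc, highest in replicate 2, Mybph and Xirp1, highest in replicate 3, and Lmod3, Ttn and Smyd1, highest in replicate 1. The sum over the 44 genes took 0.0158% to 0.0176% of each control library, and 0.809%, 0.449%, 0.195%, 1.22% and 0.158% in cKO replicates 1 to 5. All 5 cKO sums were above the control range, and they differed among themselves more than the controls did. In bulk libraries, fewer cells of a type and less RNA per cell cannot be told apart.

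Which genes made up that sum differed between the groups. In controls, Des supplied 23.4% to 56.8% and Flnc 27.1% to 31.8%, and Acta1 0.452% to 3.73%. In cKO libraries Acta1 supplied 29.3% to 52.8%, Des 6.69% to 22.8% and Flnc 0.620% to 5.62%. Without Des and Flnc the sum was 0.00284% to 0.00738% in controls and 0.137% to 1.13% in cKO. The number of members at 0 was 20, 14, 22 and 25 in controls 1 to 4 and 0, 0, 1, 0 and 2 in cKO replicates 1 to 5.

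Relations between members within a library avoid the scaling between libraries. The count of Acta1 over that of Mylpf was 1.85, 1.76, 0.863 and 0.387 in controls 1 to 4 and 8.75, 11.7, 7.29, 8.39 and 10.7 in cKO replicates 1 to 5. Acta1 over Myl1 was between 1.85 and 3.24 in controls and between 6.47 and 11.6 in cKO. These ratios do not overlap between the groups; they were chosen after the values were seen and were not tested.

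Per kilobase of the principal transcript, the mean over cKO libraries was 108629 normalized counts for Acta1, 23812 for Myl1, 22796 for Mylpf, 15709 for Tcap and 9278 for Des, in that order the highest of the 44. In controls the order was led by Des at 1272 per kilobase, Pdlim3 at 628 and Flnc at 353, followed by Mylpf at 264 and Acta1 at 176. Titin, whose transcript is the longest at 100.4 kb, was last of the 44 in cKO at 7.33 per kilobase, and nebulin, at 22.5 kb, was 42nd at 38.8. The 4 members with transcripts over 10 kb all ranked between 36 and 44.

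**Figure D4:**
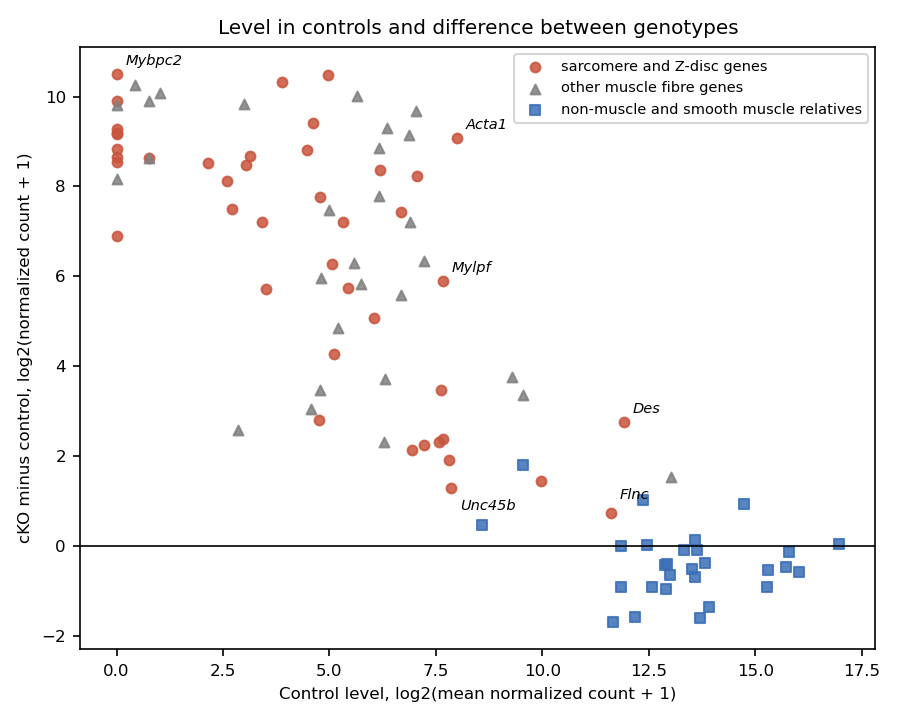
Difference between cKO and control on the log2(normalized count + 1) scale against the log2(mean normalized count + 1) of the controls, which is itself part of that difference, for the 43 tested genes, other muscle fibre genes and non-muscle and smooth muscle relatives. Members with low controls have the largest differences, and Des (2.77) and Flnc (0.74) lie at the right with smaller ones. Most relatives lie near or below 0, with 7 of 28 above 0 and Synpo2 the highest at 1.80.

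Fast and slow versions of the same protein were compared per kilobase within each cKO library. Myl2 was 7.03%, 18.0%, 0.613%, 7.54% and 2.24% of the sum of Mylpf and Myl2 in cKO replicates 1 to 5, and Myl3 was 2.67%, 19.3%, 1.84%, 2.32% and 2.15% of the sum of Myl1 and Myl3. Replicate 2 had the highest slow share for both light chains. Actn2 was 10.1% to 23.4% of Actn3 and Actn2. Myoz2 was 29.0%, 42.6%, 30.0%, 27.0% and 5.04% of Myoz1 and Myoz2, again highest in replicate 2. The fast version was thus the more abundant in all 5 libraries for these 4 pairs.

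Myosin-binding protein C was the exception. Mybpc1, slow by name, was 82.7%, 64.3%, 91.3%, 73.5% and 46.2% of Mybpc2 and Mybpc1 in cKO replicates 1 to 5, and so the larger part in 4 of 5. Replicate 3 had the highest Mybpc1 share and the lowest Myl2 and Myl3 shares, so the pairs did not order the libraries alike. In the controls, Myl2 and Mybpc2 had no read and Myl3 had 2. For Myl1, 13.1% of its 100-base stretches also occur in the pseudogene Mylf-ps.

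**Figure D5:**
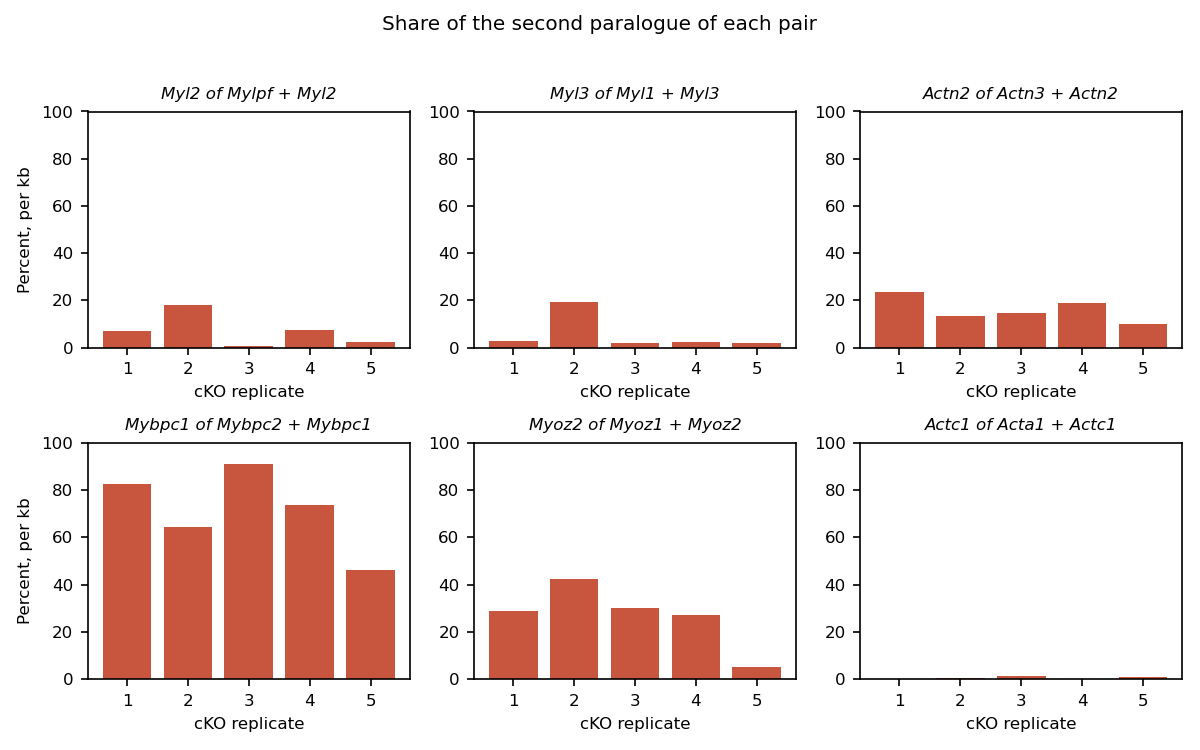
Share of the second gene in the sum of each pair, in percent of counts per kilobase, in each of the 5 cKO libraries. Bars stay under 50% for Myl2, Myl3, Actn2, Myoz2 and Actc1, and Mybpc1 exceeds 50% in 4 of 5 libraries.

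The libraries of like depth give the comparison free of the depth gap, between cKO replicate 5 and the 4 controls, all under 60 M reads. Replicate 5 was above every control in 37 of the 44 members, against 25.6% of genes tested, and its median difference from the mean of the controls was 5.56. Only the controls contribute to the variance of that fit, and the single cKO library is assumed to vary like them. It called 7 members, Mybpc2, Myl2, Mypn, Xirp2, Abra, Klhl31 and Trim54, each at an adjusted p of 0.0325, and none as lower, where 0.411% of all genes were called higher and 0.114% lower. All 7 had no read in any control, so they had no spread among the controls. These 7 were tested only because of their cKO levels, so their calls cannot decide whether members differ at like depth. The 13 members that reached 10 in every control did not depend on cKO levels to be tested. Their median difference in replicate 5 was 2.16, ranging from -0.050 to 7.76. Myom3, Pdlim3 and the untested Myoz3 were not higher in replicate 5, with differences of -3.73 (adjusted p = 0.688), -0.050 (adjusted p = 0.982) and -1.47. After thinning of all libraries to the smallest read total, 34 members were called, the same genes as without thinning.

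Other genes of the muscle fibre differed in the same direction. Of 30 genes of myosin heavy chains, troponins, calcium handling and fibre metabolism, 29 were tested, 24 rose and 0 fell, with a median of 7.20. Several of those tested, among them Myh2, Myh4, Tnnc1, Cacna1s and Trdn, reached a normalized count of 10 in no control. Those were tested only because of their cKO levels and had to differ. With no filter on low values, 23 of 30 were called higher and 0 lower, against 2.67% and 1.67% of all genes. Myh4, the fastest myosin heavy chain, was at 1.38 in control 2 and 0 in the other controls, against 1482, 1318, 968, 2070 and 2054 in cKO replicates 1 to 5 (difference 10.26, adjusted p = 3.5e-05). Myh7, the slow heavy chain, was at 0 in all controls and at 893, 738, 0, 1147 and 0 in cKO, and was not tested. Its 2 cKO libraries at 0, replicates 3 and 5, were also those with the lowest Myl2 and Myl3 counts.

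The non-muscle and smooth muscle relatives of the same families mostly did not pass the test. Of 28 tested, 2 rose, Pdlim4 (1.02) and Synpo2 (1.80), and 4 fell, among them Synpo (-1.36), Mylk (-0.91) and Actn1 (-1.59). Their median was -0.44. These 6 calls were sensitive to the libraries used: 2 or 3 remained when any 1 library other than cKO replicate 5 was left out, and 17 were called without replicate 5. The 2 higher calls were lost with edgeR (adjusted p = 0.0518 for Pdlim4 and 0.0533 for Synpo2) and with no filter. Without 1 library other than cKO replicate 5, none was called higher except 1 without control 4. Among α-actinins, Actn2 and Actn3 were called higher and Actn1 lower, while the non-muscle Actn4 was not called (-0.47, adjusted p = 0.156). The Actn1 call was lost with edgeR (adjusted p = 0.0787), and its count of 4118 in cKO replicate 5 lay within the controls. The differences between these relatives were not tested. Calls over all genes moved in the same manner, from 730 higher to between 257 and 423 without any 1 library other than cKO replicate 5 and to 1963 (12.4%, with 10.1% lower) without replicate 5.

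Markers of some other cells also differed between the genotypes, some higher and some lower in cKO. Muscle stem cell and myoblast markers were called higher in 6 of 8 tested of 10 (Pax7, Myf5, Myod1, Myog, Chrna1 and Cdh15). With edgeR and with no filter 5 were called, and Myog was lost (adjusted p = 0.108 and 0.0605). The sum of these markers was 436 to 1624 in controls and 18417, 39217, 41121, 13893 and 5400 in cKO replicates 1 to 5. That sum was highest in replicates 2 and 3, while the contractile genes were highest in replicates 4 and 1. Pax7, which marks muscle stem cells, was at 2.76 to 16.2 in controls and 789, 1696, 1928, 566 and 82.0 in cKO. Mymx was at 0 in all 4 controls and 4 of 5 cKO libraries. The part of these cells in the differences of the contractile genes was not tested.

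Of 9 cardiac markers, Myl7, Mybpc3, Myh6 and Nppa reached at most 22.4 in any library and Tnni3 at most 16.2. Ryr2 was at 99.1 in control 3 and at most 4.34 elsewhere. The 3 tested were Myl4, at 153 to 427 in all 9 libraries, Tnnt2, at 0 to 44.7 in controls and 15.9 to 197 in cKO, and Ankrd1, at 0 to 5.59 in controls and 79.3 to 2372 in cKO. Of these only Ankrd1 was called higher, and it was tested only because of its cKO levels. The sum over the 9 markers was 205 to 314 in controls and 298 to 2728 in cKO. Smooth muscle and pericyte markers summed to 76741 to 95413 in controls and 33983 to 65449 in cKO. Of these, 2 of 8 were lower (Cspg4 and Mcam, with 2 called by edgeR and 5 by DESeq2), and none of the differences was above 0. LEPR stromal markers were called in 1 of 10 (Pdgfra, higher), and their sum took 6.39% to 7.56% of a control library and 4.42% to 13.9% of a cKO library. Type I collagen (Col1a1 and Col1a2) made up 90.5% to 98.3% of that sum, and the other 8 markers summed to 91154 to 347372 in controls and 79488 to 178640 in cKO. Schwann cell markers were higher in 6 of 8 (5 with edgeR, 7 with DESeq2), at 22805 to 30494 in controls and 58649 to 135676 in cKO. Cartilage markers were lower in 7 of 9 (1 with edgeR, 7 with DESeq2), at 1520583 to 3975532 in controls and 57252 to 991403 in cKO. All 9 were lower at an unadjusted limma p under 0.05. Endothelial markers were lower in 2 of 7 (5 each with edgeR and DESeq2). Their sum was 90729 and 114780 in controls 1 and 3, but 3440 and 6030 in controls 2 and 4, within or near the 3630 to 7182 of the cKO libraries. Blood markers were called in 0 of 9 tested by limma (2 at an unadjusted p under 0.05, both lower; 0 by edgeR and 0 by DESeq2), at 63399 to 237803 in controls and 25879 to 397031 in cKO. The part of these cells in the differences was not tested either.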

How the data were processed

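The authors deposited normalized counts (a signal: gene counts divided by a size factor per library) for 27179 Entrez IDs in 9 libraries. STAR, featureCounts, DESeq2 and mm39 are named in the submitters' processing notes without versions or strand setting; reads were paired, of 150 bases, per the labels' protocols. The authors' deposited table of their own comparison gives, per the file headers, a mean signal, log2 fold changes with standard errors, a Wald-type score, and raw and adjusted p-values.

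Each library's values were whole multiples of its smallest step (tolerance 0.01 of a read), for at least 99.99% of values above 0, which recovered reads. Intervals and floors (3 reads per library) cover counting error only. Genotypes were compared with limma (version 3.58.1, R 4.3.3) on log2(normalized count + 1) for 15832 genes with at least 10 in at least 4 libraries. The linear model held genotype alone, with trended empirical Bayes, two-sided tests, Benjamini-Hochberg adjustment and a threshold of 0.05. Its test on simulated data used smaller changes than most members showed and the same spread in both groups. That test therefore did not cover members with no control read. Alternatives were edgeR 4.0.16, DESeq2 1.42.0, other pseudocounts, filters and scalings, a replicate block, thinning, and subsets of libraries. Symbols (25275 IDs) and promoter windows are from RefSeq GRCm38.p6, transcript lengths, exon overlap and shared 100-base stretches from GENCODE M21 on the same build. No gene coordinates of mm39 are given.

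Members and all lists were chosen with earlier results of these data known. Members were named by role. Values in every library were to be given for the 4 most abundant, the smallest and largest difference and untested members of each role, and for fast and slow pairs; members outside this rule were added after their values were seen. From other lists genes with the smallest p were named, and a few (Myh7, Pax7, Mymx) after their values were seen. A gene that the rule selects is not reported here; it stayed in every test and count.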

Additional observations from a re-analysis of the deposited data

Results flagged for a closer look

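Of 88 groups examined (44 members in each genotype), 10 had 1 library standing apart from the others on the log2(normalized count + 1) scale. In 8 of them the other 3 controls were all at 0, so that any single value above 0 stands apart by construction; for values without such ties, chance gives a gap of this size in about 1 in 20 groups. In 5 of these, control 2 was the only control with reads: Neb at 13.8, Lmod3 at 41.4, Myom2 at 38.6, Myot at 121 and Trim63 at 22.1 normalized counts, each with 0 in the other 3 controls. Myl3 was at 2.79 in control 4, Mylk2 at 20.3 in control 1 and Myoz3 at 58.1 in control 3, again with 0 in the other controls. Actn3 stood apart by its absence, at 0 in control 4 with 149 in the nearest control. Actc1 was at 43.4 in cKO replicate 4, the library richest in most other members, with 331 in the nearest cKO library.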

How the results depend on the processing

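All differences of the 43 tested members stayed above 0 in the alternatives run, except in libraries under 60 M reads, where Myom3 was at -3.73 and Pdlim3 at -0.050. Of 903 member values under an alternative, 808 kept their side of the threshold, 74 lost it, 19 gained it and 2 changed sign. In those shallow libraries 7 members, 83 of all genes, 3 other muscle genes and 0 paralogues were called by limma, and Grem1 was at -3.16 (adjusted p = 0.153). Of the paralogues, 2 had an unadjusted p under 0.05 there; on all libraries edgeR called 3 and DESeq2 13. Without controls 1 and 3 together, 24 members (23 of them among the 34), 338 genes and 2 paralogues were called, and Grem1 was at -2.36 (adjusted p = 0.0934). All genes called numbered 786 with edgeR and 2539 with DESeq2. Leaving out 1 library at a time gave 29 to 37 members, 377 to 3562 genes, 18 to 26 other muscle genes and 2 to 17 paralogues, and Grem1 between -2.93 and -2.51. The replicate block gave 38 members, 33 of them among the 34, 2715 genes and 15 paralogues; since cKO replicate 5 has no partner it drops out of that contrast, and leaving it out with no block gave 37 members, 3562 genes and 17 paralogues. The labels do not say whether replicate numbers pair the samples, and 4 correlations cannot settle it. Those of same-numbered libraries were 0.0705, 0.0171, -0.0062 and -0.0109, and 2 of 4 controls correlated best with the cKO library of their own number. The cause of these changes was not tested. Depth limits members with no control read to lower bounds, and the comparison at like depth to 1 cKO library.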
